A study of Mus musculus with 16 samples.

Results

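H3K27Ac peaks were described at 10 genes of the cells and matrix that surround heart muscle cells: the matrix proteins Sparc, Fbn1, Fn1, Col4a1 and Col4a2, the protease inhibitors Timp2 and Timp3, the growth factor Tgfb1, and the platelet-derived growth factor (PDGF) receptors Pdgfra and Pdgfrb. Members were every peak whose gene in the authors' annotation, the gene with the nearest transcription start, was one of these 10. Of the 10 genes, 8 held a peak in at least 1 list. They held 101 of the 53959 peaks of the 4 lists. Overlapping peaks of the 4 lists merged into 18277 regions, of which 35 belonged to these genes. Fn1 and Pdgfrb had no peak in any list.

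H3K27Ac is acetylation of lysine 27 of histone H3, a mark carried by active promoters and enhancers. In the heart, fibroblasts lay down the interstitial matrix of fibrillar collagens, fibronectin and fibrillin microfibrils, while collagen IV forms the basement membrane around muscle cells and capillaries. PDGF receptor alpha is a usual marker of cardiac fibroblasts and PDGF receptor beta of pericytes, and transforming growth factor beta (TGF-beta) is a known driver of matrix production.

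The libraries came from adult cardiomyocytes freed from hearts of 3-month-old mice by perfusion with trypsin and collagenase D. Mice were Des+/+ (intact desmin, the muscle intermediate filament protein) or Des-/- (no desmin), and had either not swum (basal) or undergone swimming exercise (swim). Each of these 4 groups gave 1 H3K27Ac library of chromatin from several mice, called against its own input, so no spread between replicates exists and none of the differences below has a replicate check. Intervals are at 95% and cover counting error only.

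The basal lists held 15757 (Des+/+) and 16638 (Des-/-) peaks and the swim lists 11157 (Des+/+) and 10407 (Des-/-), with no library total beside them. Below, 4 values in a row keep this order. Height is the number of overlapping reads at a peak, and no H3K27Ac peak was lower than 15 reads. The mean input height over all peaks was 2.96, 2.80, 3.06 and 5.48 reads, so Des-/- swim stood apart in its input. At the peaks of the 10 genes it was 3, 2.56, 2.57 and 4.29 reads. The start of Des, the targeted gene, carried peaks in all 4 lists, of up to 30, 46, 24 and 37 reads, so acetylation there does not check the genotype. Of all genes with a peak in any list, 86.3%, 91.1%, 65.6% and 64.5% had one in the respective list. From Des-/- basal to Des-/- swim, 32.3% of all genes with a peak were lost. Of 15 cardiomyocyte markers, 15, 15, 15 and 11 had a peak. Markers of other cells also held peaks. Of 15 endothelial markers, 13, 13, 12 and 11 had a peak (summed heights of 1266, 1040, 798 and 966 reads), among them Pecam1 and Erg. Of 15 fibroblast markers, 2, 6, 2 and 3 had a peak (65, 182, 67 and 78 reads), and Col1a2, Col3a1, Dcn, Lum and Postn had none in any list. Of 12 pericyte and smooth muscle markers, 3, 3, 3 and 1 had a peak (105, 116, 51 and 22 reads), and Rgs5, Cspg4, Kcnj8, Acta2 and Myh11 had none. The part of these cells in the results below was not tested. In such pooled cells, fewer cells of a type and less acetylation per cell cannot be told apart.

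The sequences at the sites that the results turn on are shown first, 5′ to 3′ on the strand of the gene, in build GRCm38. The Timp2 site had the largest height difference between genotypes, and the Sparc exon region one of the tallest peaks. The Sparc intron window belongs to a peak of Des-/- basal alone and the Fbn1 intron window to a peak of both basal lists. The Col4a1 and Col4a2 windows belong to the tallest intronic peaks of that locus. Tgfb1 shows a promoter acetylated in all 4 lists and Pdgfra a main promoter with no peak. Each summit window spans 300 bases of chr11:118363045-118363344 (minus strand) for Timp2, chr11:55405161-55405460 and chr11:55410919-55411218 (minus) for Sparc, chr2:125470310-125470609 (minus) for Fbn1, chr8:11323026-11323325 (minus) for Col4a1 and chr8:11383111-11383410 (plus) for Col4a2. The promoter windows are the 200 bases before the RefSeq start, chr7:25686802-25687001 (plus) for Tgfb1 and chr5:75152051-75152250 (plus) for Pdgfra. None of the windows lies on an annotated untranslated region. Capitals mark matches, on either strand, to TGANTCA for the AP-1 factors, to GGGCGG for the GC box of SP and KLF factors, to GGAATG for the TEAD factors, to CAGCTG for the E-box of bHLH factors such as TCF21, to AGATAA for the GATA factors, to CAGACA for the SMAD proteins, or to the CArG box of serum response factor.
Timp2 -7.78 kb: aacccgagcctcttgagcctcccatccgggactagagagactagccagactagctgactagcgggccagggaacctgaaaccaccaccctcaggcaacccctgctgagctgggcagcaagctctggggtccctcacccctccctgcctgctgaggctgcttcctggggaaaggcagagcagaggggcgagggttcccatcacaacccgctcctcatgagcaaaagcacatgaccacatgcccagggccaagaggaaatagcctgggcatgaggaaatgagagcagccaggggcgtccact
Sparc exon region: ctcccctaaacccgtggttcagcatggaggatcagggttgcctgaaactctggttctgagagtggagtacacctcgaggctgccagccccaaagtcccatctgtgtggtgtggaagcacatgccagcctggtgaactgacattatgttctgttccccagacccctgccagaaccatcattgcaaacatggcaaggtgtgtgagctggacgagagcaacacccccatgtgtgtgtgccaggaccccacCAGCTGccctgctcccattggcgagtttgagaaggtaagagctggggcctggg
Sparc first intron: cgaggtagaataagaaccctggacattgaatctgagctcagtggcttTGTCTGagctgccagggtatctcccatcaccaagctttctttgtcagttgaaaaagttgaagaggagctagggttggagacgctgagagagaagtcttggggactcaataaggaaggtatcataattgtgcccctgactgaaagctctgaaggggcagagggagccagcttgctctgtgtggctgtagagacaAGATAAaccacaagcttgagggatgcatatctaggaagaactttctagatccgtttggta
Fbn1 intron: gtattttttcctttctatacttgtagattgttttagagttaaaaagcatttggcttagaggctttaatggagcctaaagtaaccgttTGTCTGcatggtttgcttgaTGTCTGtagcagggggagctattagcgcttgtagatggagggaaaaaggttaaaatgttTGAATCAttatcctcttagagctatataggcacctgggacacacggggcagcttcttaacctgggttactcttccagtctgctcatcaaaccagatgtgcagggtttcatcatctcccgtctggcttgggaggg
Col4a1 -10.3 kb: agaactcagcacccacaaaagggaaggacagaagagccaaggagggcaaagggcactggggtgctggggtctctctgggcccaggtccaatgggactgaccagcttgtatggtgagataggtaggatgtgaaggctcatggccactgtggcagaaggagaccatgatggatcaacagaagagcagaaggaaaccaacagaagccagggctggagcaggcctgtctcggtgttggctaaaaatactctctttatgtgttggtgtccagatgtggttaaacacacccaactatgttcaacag
Col4a2 intron: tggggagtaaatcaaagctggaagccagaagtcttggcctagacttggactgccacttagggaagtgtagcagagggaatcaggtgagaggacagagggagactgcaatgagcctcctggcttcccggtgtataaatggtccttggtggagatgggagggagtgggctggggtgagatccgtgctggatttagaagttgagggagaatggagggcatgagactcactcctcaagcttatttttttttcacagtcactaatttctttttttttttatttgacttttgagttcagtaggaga
Tgfb1 before the start: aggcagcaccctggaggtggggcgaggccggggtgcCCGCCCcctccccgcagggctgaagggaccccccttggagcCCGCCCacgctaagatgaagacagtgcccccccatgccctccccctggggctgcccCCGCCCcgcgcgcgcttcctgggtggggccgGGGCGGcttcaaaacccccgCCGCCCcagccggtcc
Pdgfra before the start: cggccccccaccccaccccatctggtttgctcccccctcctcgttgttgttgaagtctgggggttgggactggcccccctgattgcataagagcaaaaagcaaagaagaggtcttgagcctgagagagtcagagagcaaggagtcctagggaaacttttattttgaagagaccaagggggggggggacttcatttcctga

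The Timp2, Col4a1, Col4a2 and Pdgfra windows held none of these letters. The Tgfb1 promoter held 5 GC boxes. The Sparc exon region held 1 E-box, its intron window 1 GATA and 1 SMAD match, and the Fbn1 intron window 1 AP-1 and 2 SMAD matches.

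Sparc encodes SPARC (osteonectin), a collagen-binding matrix protein. Before swimming it had 5 peaks in Des+/+ and 8 in Des-/-, and after it 4 and 3. Together these covered 7.43, 11.2, 6.44 and 4.59 kb. Its promoter region (chr11:55415672-55420459, from the start into the first intron) reached 42 reads in Des+/+ (input 3) and 35 in Des-/- (input 2) before swimming, and 22 (input 2) and 27 (input 3) after it. It was acetylated in every list, and higher in both basal lists than in both swim lists. A second stretch over exons 3 to 5 of the main transcript (chr11:55404821-55407385) reached 41, 23, 27 and 28 reads, with inputs of 2, 1, 2 and 7. Here Des+/+ basal stood above the other lists, which lay within 5 reads of each other. A single peak of 2565 bp lay here in Des+/+ basal, where Des-/- basal had a pair of peaks of 22 and 23 reads.

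The end of the Sparc gene (chr11:55394499-55396255, last exons) reached 30 and 28 reads in the basal lists and 18 reads in Des+/+ swim. Des-/- swim had no peak there. Between promoter and exon 3, the first intron held peaks of 20 reads (chr11:55410845-55412406) and 16 reads (chr11:55413029-55413453) in Des-/- basal alone. An intergenic peak at -8.61 kb (minus marks a position before the start; chr11:55428449-55429210) had 15 and 22 reads in the basal lists of Des+/+ and Des-/-, and no swim list held it. A peak of 15 reads at chr11:55396764-55397412 was in Des+/+ basal only.

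Fbn1 encodes fibrillin-1, the main protein of microfibrils. Its promoter region (chr2:125504820-125507142) had heights of 18 and 22 reads before swimming and of 17 and 19 reads after it, with inputs of 2, 5, 3 and 6. These were low and alike, since 18 reads carry an exact Poisson interval of 10.7 to 28.4. A pair of peaks in intron 4 (chr2:125469709-125470658 and chr2:125470752-125471801) was in both basal lists, at 16 and 16 reads in Des+/+ and 18 and 18 in Des-/-, and in neither swim list.

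Fn1 encodes fibronectin. No list held a peak assigned to it or over its gene (chr1:71585520-71653200). The nearest peak to its start lay 346 kb (Des+/+) and 95.7 kb (Des-/-) away in the basal lists and 573 kb away in both swim lists. Peaks below 15 reads were not listed, so lower acetylation at Fn1 was not detectable here.

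Col4a1 and Col4a2 encode the alpha 1 and alpha 2 chains of collagen IV, the network-forming collagen of basement membranes. The genes lie head to head with RefSeq starts 21 bp apart. A single promoter region (chr8:11311177-11314219) spanned both starts, with 34 reads in both basal lists, 28 in Des+/+ swim and 26 in Des-/- swim. Its inputs were 6, 3, 2 and 9. The annotation gives this region to Col4a1, so Col4a2 had 0 promoter peaks although its start was acetylated. Of the 16 regions given to either gene, 4 given to Col4a1, this promoter included, had their highest peak within the Col4a2 gene.

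**Figure D1:**
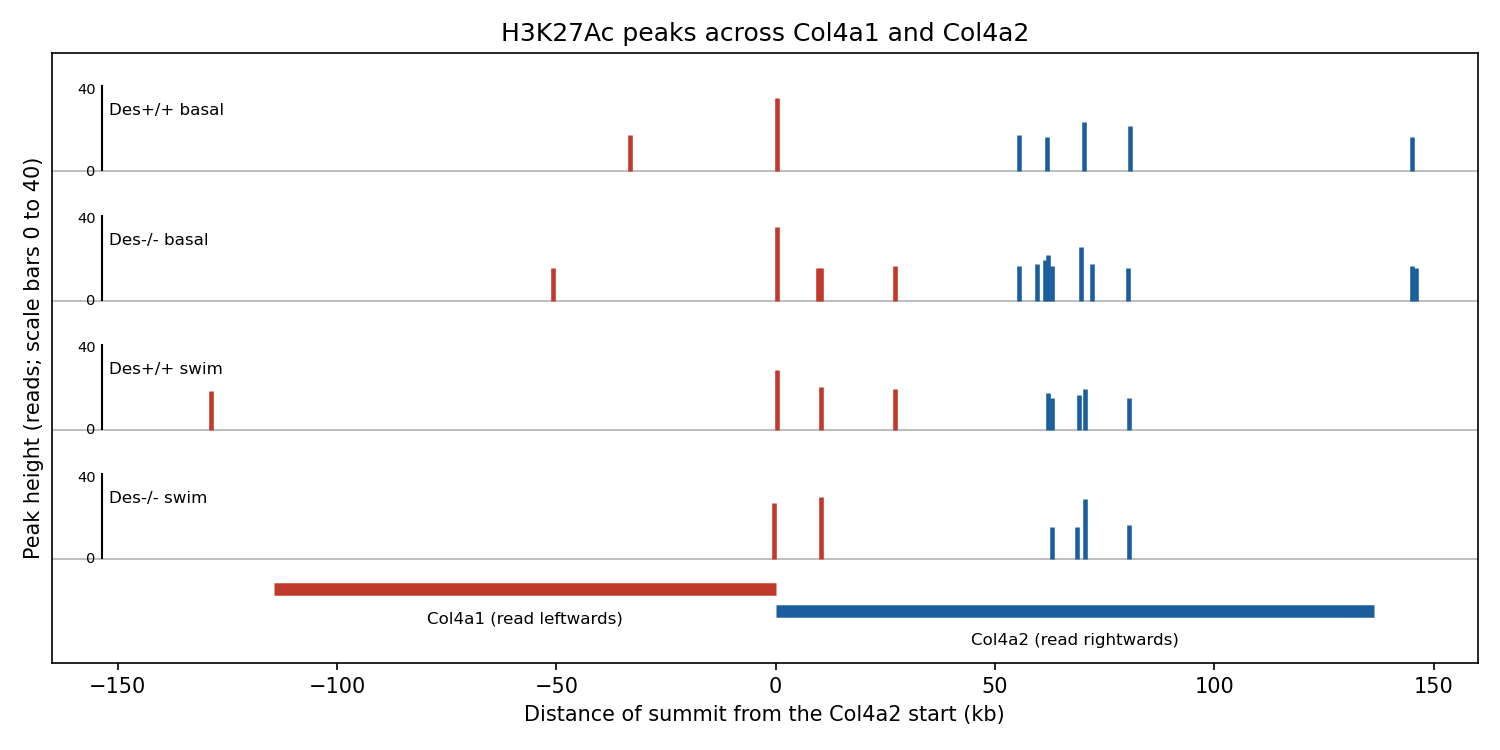
Height in reads (vertical bars, with a scale bar of 0 to 40 per list) of each H3K27Ac peak assigned to Col4a1 (red) or Col4a2 (blue), by distance of its summit from the Col4a2 start in kb, in the 4 lists. The thick lines are the gene bodies. A bar at the shared start is in every list at 26 to 34 reads, and a cluster of Col4a2 bars lies between 55.4 and 80.7 kb.

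Inside intron 3 of Col4a2, a region at -10.3 kb from the Col4a1 start (chr8:11322756-11323951) had no peak in Des+/+ basal. It had 15 reads in the Des-/- basal list and, after swimming, 20 in Des+/+ and 29 in Des-/-, each with an input of 2. A region farther in the same intron (chr8:11339231-11340759) had 16 reads in Des-/- basal and 19 in Des+/+ swim only. Other Col4a1 peaks were in 1 list each, at heights of 15 to 18 reads. Of these, the peak of 17 reads at chr8:11279475-11280223 lay at another annotated start of Col4a1 in Des+/+ basal.

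Col4a2 had 5, 10, 5 and 4 peaks, most of them in its intron 4. Its tallest region (chr8:11381360-11384014) had 23, 25, 19 and 28 reads, each with an input of 2, and was in all 4 lists. A second region of all 4 lists (chr8:11392428-11394148) had 21, 15, 15 and 16 reads. The 10 peaks of Des-/- basal ranged from 15 to 25 reads and the 5 of Des+/+ basal from 16 to 23, so the added peaks were low ones. The regions at chr8:11457522-11458171 and chr8:11458345-11458911 carry the name Col4a2 by nearest start, but lie beyond its end over Rab20 and Gm20100.

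Timp2 encodes a tissue inhibitor of metalloproteinases that also takes part in activating MMP2. Its tallest site was not the promoter but an intergenic region at -7.78 kb (chr11:118362043-118363491). Before swimming its height was 21 reads in Des+/+ (interval 13.0 to 32.1, input 4) and 45 in Des-/- (32.8 to 60.2, input 2). After swimming it was 17 (9.90 to 27.2, input 3) and 19 (11.4 to 29.7, input 5). Des-/- basal stood apart, and the other 3 lists lay within 4 reads of each other. The height of 45 exceeded 84.3% of the peaks of its list. The Timp2 promoter (chr11:118354590-118356057) had 2 peaks of 16 and 15 reads in Des+/+ basal, where Des-/- basal had 1 peak of 20 reads. Neither swim list held a promoter peak of Timp2, so after swimming the nearest peak to its start was the intergenic one, 7.17 and 7.26 kb away.

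Timp3 encodes a metalloproteinase inhibitor that binds to the matrix. Its gene lies inside an intron of Syn3 on the opposite strand, and reads do not tell the genes apart. It had 5, 3, 6 and 4 peaks. The promoter region (chr10:86299850-86302854) had 29, 24, 24 and 29 reads, with inputs of 3, 4, 2 and 8. A region in intron 2 of Timp3 at 39.6 kb from the start (chr10:86339721-86342052) had 27, 28, 25 and 22 reads. These 2 regions differed by at most 6 reads over the 4 lists. A region at -26.0 kb over an intron of Syn3 (chr10:86272911-86274888) had 27 reads in Des+/+ basal and 17, 18 and 16 in the other lists, with an input of 2 in each. Peaks of 17 and 15 reads at 2.65 and 38.9 kb were in Des+/+ swim alone.

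Tgfb1 encodes TGF-beta 1. It had 2 peaks in each list, all at its promoter (chr7:25686728-25689790). The taller had 30 (Des+/+) and 26 (Des-/-) reads before swimming and 25 and 27 after it, with inputs at those peaks of 3, 3, 2 and 7 (in Des-/- basal both peaks had 26 reads, and the other an input of 4). These heights lie within 5 reads, well inside the interval of 20.2 to 42.8 around 30 reads. No intronic or intergenic peak carried its name.

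The PDGF receptors had few peaks or none. Before swimming, Pdgfra had 1 peak of 16 reads in Des+/+ and 1 of 15 reads in Des-/- (chr5:75155794-75156500, input 4 in both), and none in either swim list. The summits lay 3.93 and 3.88 kb inside the gene at an alternative annotated start, and not at the main start. Both stand at or next to the minimum of 15 reads, so a fall of few reads would take them out of the lists. Pdgfra shared its pattern, a peak in both basal lists and in neither swim list, with 11.8% of all genes with a peak (1286 of 10927), among them the proteases Adamts5 and Mmp15. After swimming, the nearest peak to the Pdgfra start was 108 and 107 kb away. Pdgfrb had no peak, and the nearest to its start lay 82.0 and 51.9 kb away in the basal lists and 131 kb away in both swim lists.

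**Figure D2:**
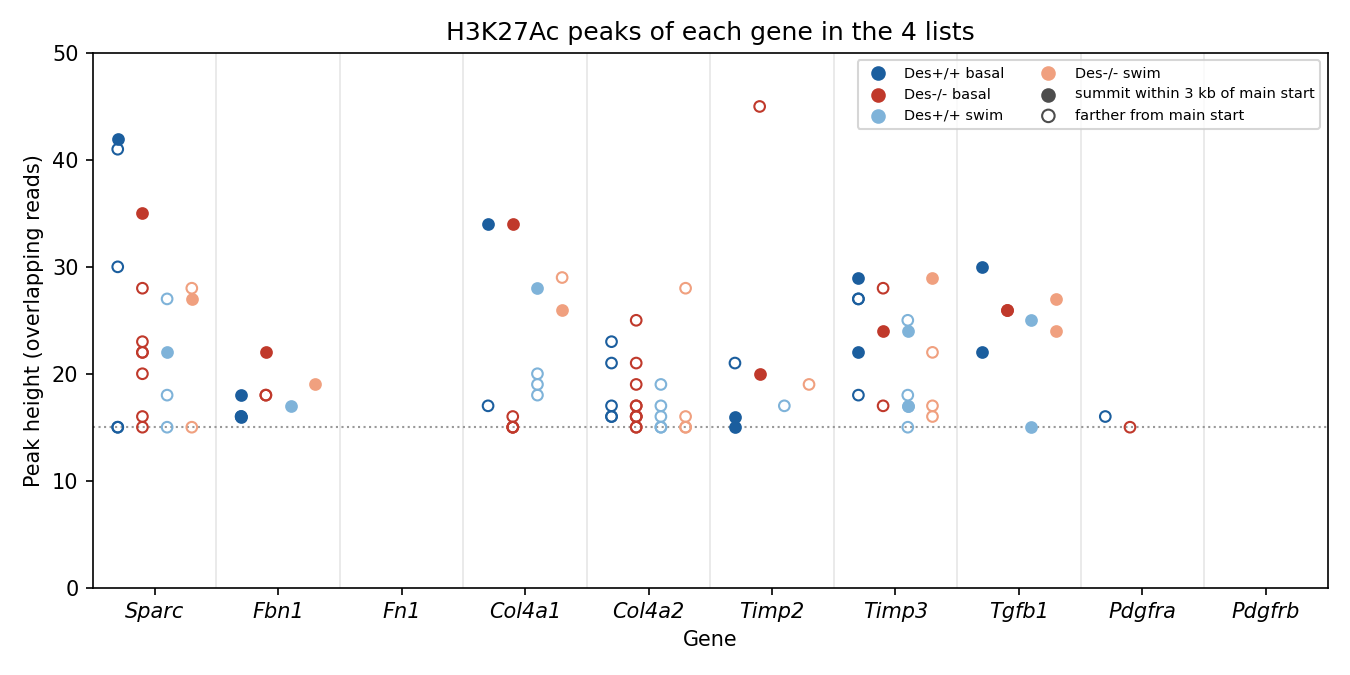
Height in reads of every H3K27Ac peak of the 10 genes, with 1 point per peak and 1 colour per list. Filled points have their summit within 3 kb of the main start, open points lie farther, and the dotted line is the minimum of 15 reads. The tallest points are Timp2 in Des-/- basal (45) and Sparc in Des+/+ basal (42), and Fn1 and Pdgfrb are empty.

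Over the 10 genes, the basal lists held 27 (Des+/+) and 34 (Des-/-) peaks and the swim lists 23 and 17. Of the 8 genes with a peak in any list, 8, 8, 7 and 7 had one in the respective list. Of all 10927 genes with a peak in any list, 86.3%, 91.1%, 65.6% and 64.5% had one in the respective list. Peaks within 3 kb of any annotated start made up 51.9%, 29.4%, 39.1% and 41.2% of these genes' peaks, against 71.5%, 71.2%, 74.4% and 77.3% of all peaks. Intronic peaks numbered 9, 18, 11 and 9. At a minimum of 20 reads the promoter shares were 53.8%, 50%, 71.4% and 66.7%, of 13, 16, 7 and 9 peaks, against 80.7%, 81.8%, 82.9% and 85.4% of all. The median height was 18, 18.5, 18 and 22 reads, against 23, 23, 20 and 23 over all peaks.

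Whether desmin loss changed where these genes were acetylated in unstressed hearts was first read from peaks with no overlapping peak in the other genotype. In Des-/- basal, 10 of the 34 peaks (29.4%, Wilson interval 16.8 to 46.2) had no partner in Des+/+ basal, against 19.7% of all its peaks. These 10 lay at Sparc, Col4a1 and Col4a2 and had 15 to 20 reads. Over all peaks of the same heights as these 34, the share was 29.7%, next to that of the 10 genes. At a minimum of 20 reads in both lists, 5 of 16 had no partner (17.9% of all). Of these 5, only the Sparc first intron peak of 20 reads had no partner in the full Des+/+ basal list. The others, at Fbn1, Timp2, Col4a2 and the Sparc intergenic site, overlapped Des+/+ basal peaks of 15 to 18 reads, which that minimum took out. In Des+/+ basal, 2 of 27 peaks (7.41%, 2.06 to 23.4) had no partner in Des-/- basal, against 14.5% of all and 21.1% of all peaks of the same heights. They were the Sparc peak of 15 reads and the Col4a1 peak of 17 reads. Of the 8 genes with a basal peak, 0 had a peak in only 1 genotype. Over all genes this was 11.9% of those with a peak in Des-/- basal and 6.97% of those in Des+/+ basal.

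Height was then compared at the 20 regions with a peak in both basal lists. The median Des-/- to Des+/+ difference, less the median of all 12247 shared regions, was -0.080 on the log2 scale of height plus 1. It was higher at 8 regions and lower at 12. After that centring, 1 region was over 1.5-fold higher in Des-/- (2.57% of all shared regions) and 2 were over 1.5-fold lower (2.84% of all). The higher was the Timp2 intergenic region, 45 against 21 reads, a ratio of 2.14 (exact interval 1.25 to 3.79, where the median of all regions was 1.06). The lower were the Sparc exon region, 23 against 41 reads, with a ratio of 0.561 (0.321 to 0.957), and the Timp3 region at -26.0 kb, 17 against 27 reads, with a ratio of 0.630 (0.322 to 1.20). The interval of Timp3 includes the median of all regions. As a fold over input, centred in the same way, the Sparc difference was -0.36 on the log2 scale, from -0.89 as height, and so not past 1.5-fold. Timp2 had 1.66 as a fold over input and 0.98 as height, and Timp3 -0.78 and -0.72. No correction was made for the 63 ratios read over the 4 pairs of lists.

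The genotypes were compared in the same way after swimming. Des+/+ swim had 6 of 23 peaks (26.1%, 12.5 to 46.5) with no partner in Des-/- swim, against 27% of all. They lay at Sparc, Timp3, Col4a1 and Col4a2 and had 15 to 19 reads. Des-/- swim had 0 of 17, which allows up to 17.6%, against 22.2% of all its peaks and 28.7% of all peaks of the same heights. With equal numbers of the highest peaks in each list, 2 of the 17 had no partner (24.5% of all). As in the basal state, 0 genes had a peak in only 1 genotype, against 17.6% of all genes with a peak in Des+/+ swim and 16.3% of those in Des-/- swim. At the 14 shared regions the centred median difference was -0.045 on the log2 scale. By height, 0 of these were over 1.5-fold higher and 0 lower, against 2.94% and 3.64% of all shared regions. The largest uncentred ratio was 1.47 (0.794 to 2.79) at the tallest Col4a2 region, 28 against 19 reads. As a fold over input, centred in the same way, regions passed 1.5-fold in both directions, so the result depended on the input. That Col4a2 region had 1.05 on the log2 scale and the Col4a1 region at -10.3 kb 1.03. The Col4a1 promoter had -1.32 (inputs 2 in Des+/+ and 9 in Des-/-) and the Sparc exon region -0.85 (2 and 7). No share of all regions was computed for that measure. Whether the genotype difference itself differed between basal and swim was not tested.

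Swimming in Des+/+ was read in the same way. Of the 27 basal peaks, 10 (37.0%, 21.5 to 55.8) had no partner after swimming, against 39.0% of all. They included the promoter pair of Timp2, the intron pair of Fbn1 and the Pdgfra peak. Of the 23 swim peaks, 7 (30.4%, 15.6 to 50.9) had no partner in the basal list, against 8.39% of all and 12.0% of all peaks of the same heights. These were 3 of Col4a1, 1 of Col4a2, 1 of Sparc and 2 of Timp3, of 15 to 20 reads, and several share a locus. At a minimum of 20 reads in both lists, 1 of 7 swim peaks had no partner (4.89% of all). With equal numbers of the highest peaks in each list, 8 swim peaks had no basal partner (16.8% of all) and 2 basal peaks no swim partner (23.7% of all). Pdgfra was the gene lost, where 27.4% of all genes with a basal peak were lost, and 0 genes were gained against 4.49% of all. At the 15 shared regions, 0 were over 1.5-fold higher or lower after centring, against 3.85% and 3.13% of all shared regions. Their centred median was 0.13 on the log2 scale. The Sparc promoter fell from 42 to 22 reads, a ratio of 0.524 (0.298 to 0.898), while the median over all shared regions was 0.75. As a fold over input, centred in the same way, some regions did pass 1.5-fold. The Timp3 region in intron 2 had 1.72 on the log2 scale (inputs 7 and 2) and the Col4a1 promoter 1.37 (6 and 2). The Col4a2 region chr8:11392428-11394148 had -0.78 (2 and 4).

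In Des-/-, 18 of the 34 basal peaks (52.9%, 36.7 to 68.5) had no partner after swimming, against 44.8% of all peaks and 61.1% of all peaks of the same heights. Most of the 18 carried the names Col4a1 and Col4a2, which share a locus. The others were the Sparc intron peaks, the end of Sparc, its intergenic peak, the Timp2 promoter, the Fbn1 intron pair and Pdgfra. Every one of the 17 swim peaks had a basal partner (0 of 17 without, which allows up to 17.6%, against 6.28% of all). With equal numbers of the highest peaks in each list, 5 of the 17 had no basal partner (17% of all), and 5 basal peaks had no swim partner (24.5% of all). Pdgfra was again the gene lost, where 32.3% of all genes with a basal peak were lost, and 0 were gained against 4.45% of all. At 14 shared regions the centred median was 0.35 on the log2 scale, with 13 higher and 1 lower. Before centring the median was -0.041, against -0.39 over all shared regions. Centred on regions of the same basal height, it was 0.090, with 9 higher, 4 lower and 1 equal. Peaks under 15 reads after swimming are not in the lists, so regions of low basal height are shared only where they did not fall below it.

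In that comparison, 3 regions were over 1.5-fold higher after centring (3.99% of all shared regions) and 1 was lower (2.45% of all). The region in the Col4a2 intron at -10.3 kb from the Col4a1 start rose from 15 to 29 reads, a ratio of 1.93 (1.003 to 3.88). The Sparc exon region had 23 and 28 reads, a ratio of 1.22 (0.676 to 2.21), and the Timp3 promoter 24 and 29 reads, a ratio of 1.21 (0.679 to 2.17). The median over all shared regions was 0.762, and it lies inside the intervals of Sparc and Timp3. The input at the Sparc site was 1 and 7 reads and at the Timp3 promoter 4 and 8. As a fold over input, centred in the same way, the Sparc difference turned to -0.61 on the log2 scale, from 0.67 as height, so its direction depended on the input. Timp3 had 0.53 as a fold over input and 0.66 as height. The lower region was the Timp2 intergenic site, from 45 to 19 reads, with a ratio of 0.422 (0.233 to 0.737). This value and the basal genotype ratio of Timp2 share the same Des-/- basal library.

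**Figure D3:**
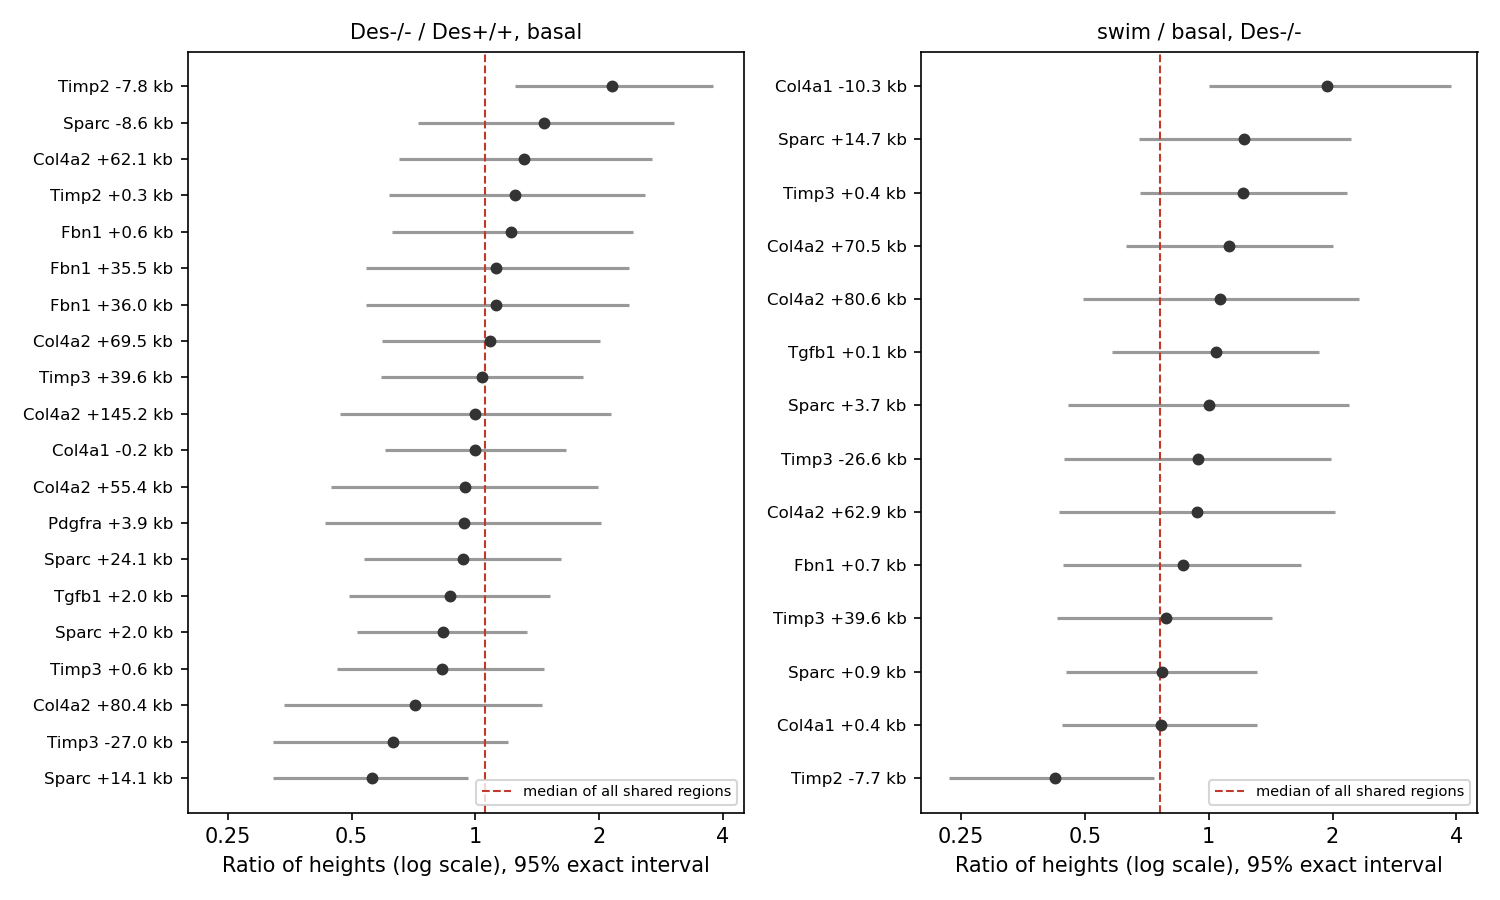
Ratio of peak heights (points, log axis) with exact 95% counting intervals (lines) at each region with a peak in both lists, for Des-/- over Des+/+ in the basal state (20 regions) and for swim over basal in Des-/- (14 regions). Labels give the gene and the summit's distance in kb from its main start, and the dashed line is the median of all shared regions (1.06 and 0.762). The Timp2 region is at the top on the left and at the bottom on the right.

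**Figure D4:**
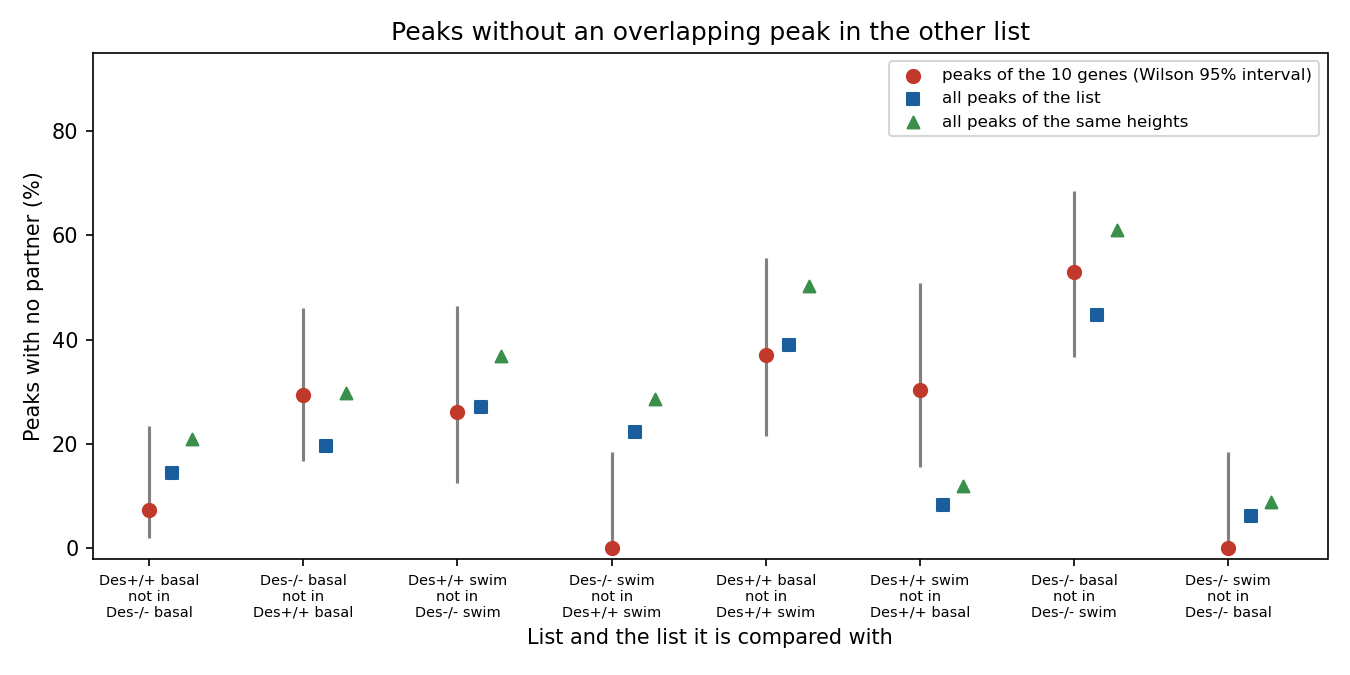
Percent of peaks with no overlapping peak in the other list, for the peaks of the 10 genes (red points with Wilson 95% intervals), all peaks of the list (blue squares) and all peaks of the same heights (green triangles). The red points range from 0 to 52.9%. Only in Des+/+ swim against Des+/+ basal do both other marks lie below the red interval, of 15.6 to 50.9%. It rests on 7 peaks of 15 to 20 reads. Only in Des-/- swim against Des+/+ swim do both lie above it (0 to 18.4%, against 22.2% and 28.7%).

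The merged regions were also described by the lists that held them and by the sequence around their summits. Of the 35 regions, 11 were in all 4 lists (31.4%, against 37.7% of all regions) and 12 in a single list (34.3%, against 28.2%). Of those 12, 7 were in Des-/- basal, which held 49.5% of all 5157 single-list regions, and 2 in Des+/+ basal (34.6% of all). The swim lists held 3 (Des+/+, 8.96% of all) and 0 (Des-/-, 6.96% of all). Within 300 bases around the summit, letters of the TEAD motif were in 6 of the 24 regions beyond 3 kb of a start, against 17.2% of all 6216 such regions. GATA letters were in 5 of 24 (13.4% of all), SMAD letters in 5 (28.6%), the E-box in 3 (18.6%) and AP-1 letters in 2 (8.86%). The GC box was in 0 of these 24 (10.2% of all). It was in 1 of the 11 regions within 3 kb of any annotated start, that of Tgfb1, against 48.6% of all 12061 such regions. These 11 include summits 14.8 and 23.2 kb (Sparc), 33.2 kb (Col4a1) and 3.93 kb (Pdgfra) from the main start. Their windows are not the promoter windows counted below. The CArG box was in 1 of the 11, a Sparc region, against 0.945% of all. No matches of different motifs overlapped in these windows. Median GC content was 50% in the 24 distal and 61% in the 11 proximal windows, against 49.3% and 64% of all.

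In the RefSeq table of promoters (250 bases before to 50 after the start, build GRCm38), 8 of the 10 genes had an entry. The GC box was in 6 of these 8, namely Fbn1, Tgfb1, Col4a1, Col4a2, Timp2 and Timp3, against 35.7% of all 32851 promoters. Sparc and Pdgfra lacked it. The E-box was in 3 (Fbn1, Sparc and Timp2, against 16.3% of all), and the SMAD letters in 1 (Sparc, against 21%). AP-1, TEAD, GATA and CArG letters were in 0 of the 8, against 7.81%, 14.7%, 11.2% and 1.63% of all.

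The other genes of these pathways were counted over 107 genes in 6 lists that leave out the 10. A peak was held by 48 (Des+/+) and 61 (Des-/-) of them before swimming and by 44 and 43 after it, and by 65 in any list. Over all genes with a peak in any list, the share with one in the respective list was 86.3%, 91.1%, 65.6% and 64.5%. These shares leave out genes with no peak in any list, while the counts per pathway list below are over every gene of the list. Genes with a peak in any list were 9 of 24 for interstitial matrix, 10 of 17 for basement membrane and 14 of 24 for matrix turnover. They were 3 of 5 for PDGF, 19 of 22 for TGF-beta and 10 of 15 for matrix receptors. Of the 24 interstitial matrix genes, 1, 9, 1 and 2 held a peak. Emilin1, an elastic fibre protein, was in all 4 lists, at up to 33 reads. Of the 9 with a peak in Des-/- basal, 8 had none in Des+/+ basal, against 11.9% of all genes with a peak in Des-/- basal. That share covers genes with peaks of every height, and none was computed for genes of like height. They were Eln (elastin), Col1a1, Col5a1, Col5a2, Col6a1, Col6a3, Col8a1 and Mfap5, at 15 to 22 reads, all named after their values were seen except Eln and Col6a3. At a minimum of 20 reads the list held 1, 3, 1 and 0 genes. Fibroblast markers with a peak were also most numerous in Des-/- basal (6 of 15), and 8 of their 15 genes are also in these pathway lists. Of the 65 pathway genes with any peak, 12 (18.5%) had one in Des-/- basal only, a pattern of 8.02% of all genes with a peak, again of every height.

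Basement membrane genes other than collagen IV alpha 1 and alpha 2 had a peak in 9, 8, 6 and 5 of 17. Hspg2 (perlecan) led with 9, 10, 8 and 9 peaks, of up to 30, 39, 26 and 19 reads, followed by the laminin chains Lamc1 and Lamb2. Col4a3, Col4a4, Col4a5 and Col4a6 had no peak. Matrix turnover genes had a peak in 12, 12, 11 and 9 of 24, led by the proteases Adamts9 (up to 49, 49, 31 and 24 reads) and Adam17 (up to 53, 76, 43 and 34), and by Sparcl1, a relative of Sparc. Adamts10 had peaks in both Des+/+ lists only, at 17 and 15 reads. Of the 65 pathway genes with any peak it was the 1 with that pattern (1.54%), against 0.796% of all genes with a peak. Of the 5 PDGF genes, 3, 3, 3 and 2 had a peak. They were the ligands Pdgfa, Pdgfb and Pdgfd, where of the receptors Pdgfra had a peak in the basal lists and Pdgfrb none. TGF-beta pathway genes had a peak in 16, 19, 15 and 16 of 22, and the corepressor Ski reached 102, 90, 75 and 66 reads. Skil, its relative, reached 68, 95, 59 and 58 reads, and Smad6, an inhibitory SMAD, 43, 37, 27 and 26. Ltbp3, which binds latent TGF-beta, had peaks in both Des-/- lists only, at 19 and 17 reads. Matrix receptors had a peak in 7, 10, 8 and 9 of 15, led by the integrin beta 1 gene Itgb1 at up to 91, 107, 63 and 73 reads, with Itga5 and Itga6 next. The collagen receptor Ddr2 had peaks in both Des-/- lists only, at 16 reads each. With Ltbp3 and Col6a3 it made 3 of the 65 pathway genes with any peak (4.62%), against 1.38% of all genes with a peak. These shares cover genes of every height, and these peaks stood near the minimum of 15 reads.

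**Figure D5:**
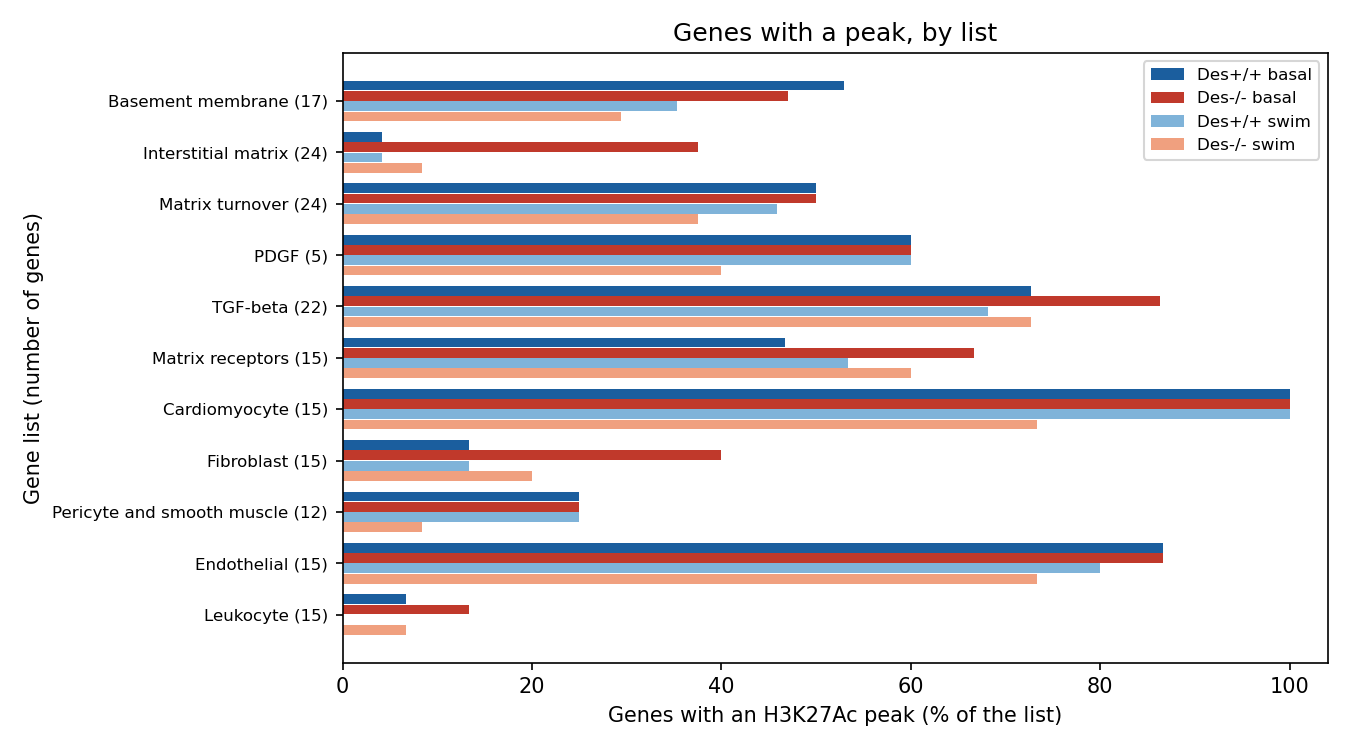
Percent of the genes of each list (number in brackets) with an H3K27Ac peak, with 1 bar per library; the upper 6 lists are pathways and the lower 5 cell type markers. Interstitial matrix (37.5%) and fibroblast markers (40%) have their longest bar in Des-/- basal, and cardiomyocyte markers are at 100% in 3 libraries and 73.3% in Des-/- swim. Over all genes with a peak in any library, the shares were 86.3% (Des+/+) and 91.1% (Des-/-) before swimming and 65.6% and 64.5% after it. The bars also count genes with no peak in any library, so they are not on the base of these shares.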

How the data were processed

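H3K27Ac and lamin A/C were mapped by the authors in 16 samples, 8 precipitated libraries and 8 inputs. Per the labels, single-end reads were aligned to GRCm38 (mm10), and the submitters' processing notes name Bowtie2 2.4.4, SAMtools 1.13 and ChIPseeker 1.36.0. Peaks were called in each library against its input by the authors' own scripts, without pooling of libraries. Removal of duplicate reads and depth scaling are not given in the sources used here. Deposited heights of peak and input are a coverage signal in whole reads. The deposited fold is the ratio of height plus 1 to input plus 1, tested here in 100% of peaks. The deposited p-value and false discovery rate were not used, and the deposited distance to the nearest start is a score in bp. Read totals are not in the lists.

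Groups came from the sample labels. The 10 genes, the pathway and marker lists and the tests were chosen with earlier results of these data known. Peaks overlapping by at least 1 bp were partners, and regions are merged overlapping peaks. Height ratios are of the highest peak in a region, with exact conditional 95% intervals. Single heights have exact Poisson and shares Wilson intervals, and a count of 0 allows 3 divided by the number counted. Past the fold means over 1.5 after subtracting the median log2 difference of all shared regions. With 1 library per group no test between groups was made. Replicate error is unknown. Pathway and marker genes were named by the 3 greatest summed heights per list, or by peaks in both libraries of one genotype or condition and in neither other. Gene positions came from GENCODE M21 and starts and promoters from RefSeq. Fn1 and Pdgfrb had no entry in the RefSeq promoter table, so their starts are those of the GENCODE genes. In place of the single transcripts of the deposited annotation, GENCODE gene records served the alternative of peaks over the gene body. Alternatives were a minimum of 20 reads, equal numbers of the highest peaks, 50% overlap, gene body plus 3 kb, fold over input, no centring, a promoter of 1 kb and, added after the data were seen, regions and peaks of the same height. Python 3.11.15, pandas 2.3.3, NumPy 2.4.6 and SciPy 1.17.1 were used. The overlap code was tested on simulated data. The lamin A/C lists, with heights from 8 reads, entered none of the H3K27Ac comparisons.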

Additional observations from a re-analysis of the deposited data

Results flagged for a closer look

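Lamin A/C peaks, from an antibody outside the H3K27Ac comparisons, carried the names of 2 of the 10 genes. At the end of Sparc (3′ untranslated region) a lamin A/C peak of 8 reads was listed in Des-/- basal. Other lamin A/C peaks there had 14 reads in Des+/+ swim and 9 reads in Des-/- swim, and Des+/+ basal had none. The inputs were 2, 2 and 1, and the Des-/- basal and Des-/- swim peaks did not overlap. At the end of Col4a1 a peak of 8 reads was listed in Des+/+ swim, with an input of 1. A lamin A/C height of 8 reads is the lowest listed and has an exact Poisson interval of 3.45 to 15.8. The lamin A/C lists were of unequal size, with 188 (Des+/+) and 831 (Des-/-) peaks before swimming and 635 and 536 after it. Of these 4 peaks, 1 (Sparc in Des-/- basal) overlapped an H3K27Ac peak of the same group.

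Of the 11 regions with a peak in all 4 lists, 5 moved in opposite directions with swimming in the genotypes, after centring on all shared regions, where 43.3% of all 6899 such regions did so. Each group had 1 library, and the difference was not tested. The Des-/- change minus the Des+/+ change was 0.84 on the log2 scale at the Sparc exon region (-0.17 in Des+/+, 0.67 in Des-/-, where the input was 1 and 7 reads) and 0.52 at the Sparc promoter (-0.49 and 0.030). It was 0.52 at the Col4a2 region chr8:11392428-11394148 (-0.044 and 0.48) and 0.45 at the Timp3 region at -26.0 kb (-0.14 and 0.31). At the Timp2 intergenic region it was -0.93 (0.13 and -0.81). The Sparc promoter and the Col4a2 region moved by under 0.05 in 1 genotype, so their opposite sign rests on almost no change there. As a fold over input, centred on these regions (an alternative chosen after seeing the data), 6 of the 11 moved in opposite directions, against 43.5% of all, and the Sparc exon region did not (-0.10 and -0.50).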

How the results depend on the processing

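At a minimum of 20 reads, the peaks of the 10 genes numbered 13 and 16 in the basal lists (Des+/+, Des-/-) and 7 and 9 in the swim lists, and the genes with a peak in Des+/+ swim 4. Peaks with no partner were then 5 (Des-/- basal not in Des+/+ basal), 0 (Des+/+ swim not in Des-/- swim), 1 (Des-/- swim not in Des+/+ swim), 1 (Des+/+ swim not in Des+/+ basal), 7 (Des-/- basal not in Des-/- swim) and 1 (Des-/- swim not in Des-/- basal), and promoter shares 50% in Des-/- basal, and 71.4% (Des+/+) and 66.7% (Des-/-) after swimming. With equal numbers of the highest peaks (10407 per list), Des+/+ basal had 13 and Des-/- basal 16 peaks, and peaks with no partner were 5 (Des-/- basal not in Des+/+ basal), 2 (Des-/- swim not in Des+/+ swim), 2 (Des+/+ basal not in Des+/+ swim), 5 (Des-/- basal not in Des-/- swim) and 5 (Des-/- swim not in Des-/- basal). As fold over input, the median log2 difference was 0.35 for genotype after swimming and 0.74 for swimming in Des-/-. Not centred, it was -0.29 for swimming in Des+/+ and -0.041 in Des-/-. Centred on regions of the same height, an alternative chosen after seeing the data, it was 0.090 for swimming in Des-/-. An overlap of 50% of the shorter peak, peaks over the gene body and a promoter of 1 kb moved none of the 8, 24 and 4 values recomputed under them. A minimum of 20 reads or equal numbers of peaks also takes partners out, so a peak with no partner there can have one in the full lists. Read totals are not in the lists, so depth limits every count, and acetylation under 15 reads was not detectable. No paired analysis was possible because each group had 1 library, and leaving out a replicate was not possible for the same reason.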

Other observations

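Genes listed as markers of other cell types held H3K27Ac peaks, and which cells gave these peaks was not tested. Among fibroblast markers, the intermediate filament gene Vim had peaks in all 4 lists, of up to 34 and 49 reads before swimming (Des+/+, Des-/-) and 31 and 44 after it, an order kept below. Fstl1 had 15 and 20 reads in the basal lists and 18 in Des-/- swim, and Meox1 20 reads in Des-/- basal and 15 in Des+/+ swim. Among pericyte and smooth muscle markers, the adhesion molecule gene Mcam had up to 35, 39, 19 and 22 reads, while Abcc9 and Notch3 had peaks in all lists but Des-/- swim. Among endothelial markers, the transcription factor gene Erg had up to 96, 65, 40 and 57 reads and Egfl7 up to 83, 64, 51 and 46. Cdh5, the cadherin of endothelial junctions, shared the pattern of Pdgfra, with 20 and 19 reads in the basal lists and no peak after swimming. Of 15 leukocyte markers, 1, 2, 0 and 1 had a peak, Cd14 and Fcgr3 among them, at 15 to 20 reads. Among cardiomyocyte markers, Atp2a2, the calcium pump gene, had up to 66, 61, 57 and 56 reads, and the list as a whole summed to 1506, 1360, 1079 and 506 reads.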
